A study of Mus musculus with 15 samples.

Results

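The 8 genes described here are the transcriptional repressors of the circadian clock: Per1, Per2, Per3, Cry1, Cry2, Ciart, Bhlhe40 and Bhlhe41. They were taken by gene name from a table of 32479 genes, and all 8 were present and passed the filter on low counts that left 18136 genes for testing. Each had at least 10 counts in all 15 libraries, so none entered the test through a single group. The lowest count of any member was 11, for Ciart in control 1. In the deposited coordinates, read as GRCm38, the Period genes lie at chr11:69095217-69109960 (Per1), chr1:91415982-91459324 (Per2) and chr4:151003652-151044665 (Per3). The cryptochromes lie at chr10:85131700-85185064 (Cry1) and chr2:92403646-92434043 (Cry2), Ciart at chr3:95878503-95882231, Bhlhe40 at chr6:108660629-108666925 and Bhlhe41 at chr6:145858243-145865558.

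The libraries came from the submandibular gland, a salivary gland that lies under the jaw, and were made from polyadenylated RNA, in 3 groups of 5. Mice of the SJQYD group were NOD/LTJ and received SJQYD, which the labels name by these letters alone. The model group held NOD/LTJ mice with no treatment, and NOD mice are known for spontaneous autoimmune inflammation of the salivary glands. The control group held ICR mice, an outbred stock, with no treatment. Every mouse is labelled WT, so no introduced allele separates the groups. Because the model and control groups are of different strains, effects of strain and of disease cannot be told apart between them. The labels give no age, no dose and no hour of collection, and the part of the hour in the differences below was not tested. Nothing in the labels says how the mice of a group were housed or related, so the p values measure the spread between these samples.

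The clock of mammalian cells is a feedback loop. The activators CLOCK and BMAL1 (the product of Arntl), or NPAS2 in the place of CLOCK, bind E-box elements in DNA and switch on the Period and Cryptochrome genes. The PER and CRY proteins gather in a complex, enter the nucleus and inhibit the activators that made them. CIART, also called CHRONO, binds BMAL1 and adds to the inhibition, while BHLHE40 and BHLHE41, known as DEC1 and DEC2, occupy E-boxes themselves. A second loop runs through the nuclear receptors NR1D1 and NR1D2, which repress Arntl and Cry1. In rodents the loop runs in peripheral organs, salivary glands included, and the level of most of these transcripts depends on the hour of the day.

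Total counts ran from 39510018 to 62335235 in the SJQYD libraries, from 52746925 to 68694263 in the model libraries and from 54836440 to 63101584 in the control libraries. Levels below are normalised read counts (CPM) on the library size after TMM scaling. The TMM factors ran from 0.594 in control 1 to 1.85 in SJQYD 1, so a CPM value is not a share of all reads. On this scaled size 3 counts correspond to between 0.0290 and 0.0840 CPM. Such floors cover counting error only. All 5 submandibular acinar markers (Aqp5, Bhlha15, Mucl2, Smgc and Pip) had counts in every library. Summed acinar markers ran from 88240 to 524800 CPM in SJQYD, from 223700 to 490100 CPM in model and from 428600 to 924300 CPM in control libraries. The summed level of 4 parotid markers was highest at 35100 CPM in SJQYD 1 of its group, at 132600 CPM in model 3 and at 41180 CPM in control 2. Summed B cell markers ran from 7.83 to 38.2 CPM in SJQYD, from 27.9 to 60.8 CPM in model and from 0.0985 to 53.6 CPM in control libraries. Xist had 1.01 CPM in SJQYD 3, while the lowest and highest of the remaining 14 libraries had 162 and 270.2 CPM. The part of these markers in the results was not tested, and the members' fold changes and the counts of called genes were also computed without SJQYD 1, SJQYD 3, model 3 and control 2. In bulk tissue, fewer cells of a type and less RNA per cell cannot be told apart.

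The sequences at starts of the members were searched for the letters of the E-box that the activators bind. RefSeq promoter windows (GRCm38.p6, 250 bases before to 50 after a start) were found for 6 of the 8 members, with 7 windows in all because Per1 had 2. Both windows of Per1 lie inside the span given for that gene above, so the bases just before that span were not searched. The E-box CACGTG, which reads the same on both strands, was present in the windows of Ciart, Cry1 and Bhlhe41 and in 1 of the 2 of Per1, against 7.15% of all 32851 windows of the same length. Its variant CACGTT, searched on both strands, was in the windows of Cry1 and Cry2, against 4.685% of windows. The D-box, bound by DBP, TEF and HLF and searched as TTATGTAA or TTACGTAA on both strands, was in the window of Per3 alone among these members, against 1.056% of windows. No window held TAGGTCA, the core of the element bound by ROR and NR1D receptors, or the cAMP response element TGACGTCA, on either strand. These are matches of letters in one short window and not measured binding sites.

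Windows of Ciart, Per1, Cry1 and Per3 are shown. That of Ciart held several matches to CACGTG. Those shown for Per1 and Cry1 held a single match each, while the genes differed in their levels. The window of Per3 held D-box matches and no match to the E-box or its variant, which leaves E-boxes outside it unsearched. Each run is the 250 bases before the start, on the gene's own strand, and capitals mark E-boxes, the E-box variant and D-boxes.
Ciart (chr3:95882229-95882478, minus strand): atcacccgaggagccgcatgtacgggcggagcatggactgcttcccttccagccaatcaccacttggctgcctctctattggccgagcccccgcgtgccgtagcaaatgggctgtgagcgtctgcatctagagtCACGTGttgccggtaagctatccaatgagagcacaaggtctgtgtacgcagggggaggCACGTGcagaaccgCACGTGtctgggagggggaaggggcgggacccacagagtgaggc
Per1 (chr11:69098699-69098948, plus strand): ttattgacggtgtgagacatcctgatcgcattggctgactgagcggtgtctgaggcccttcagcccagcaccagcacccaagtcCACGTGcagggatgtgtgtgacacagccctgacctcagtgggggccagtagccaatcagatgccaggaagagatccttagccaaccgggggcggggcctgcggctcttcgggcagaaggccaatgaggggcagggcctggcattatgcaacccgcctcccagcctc
Cry1 (chr10:85185055-85185304, minus strand): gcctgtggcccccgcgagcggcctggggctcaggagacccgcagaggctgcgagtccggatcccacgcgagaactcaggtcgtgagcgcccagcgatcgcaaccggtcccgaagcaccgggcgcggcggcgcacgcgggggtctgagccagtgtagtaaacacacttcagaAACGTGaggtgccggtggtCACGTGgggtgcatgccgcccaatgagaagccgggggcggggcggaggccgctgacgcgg
Per3 (chr4:151044666-151044915, minus strand): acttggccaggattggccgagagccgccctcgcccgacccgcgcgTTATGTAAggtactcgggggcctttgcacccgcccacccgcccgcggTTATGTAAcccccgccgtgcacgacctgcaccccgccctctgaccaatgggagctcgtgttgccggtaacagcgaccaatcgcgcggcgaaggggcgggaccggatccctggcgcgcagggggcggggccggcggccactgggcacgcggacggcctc
Counted from the start, the 3 E-boxes of Ciart began at -116, -58 and -44, and windows with 3 or more made up 0.0883% of all windows. The 2 D-boxes of Per3 began at -205 and -158, and windows with 2 or more made up 0.0244%. Both cutoffs equal the counts found in the windows of Ciart and Per3, so these shares are descriptions and not a test. The E-box of Per1 began at -166 in this window, and that of Cry1 at -60, next to the variant at -79.

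**Figure D1:**
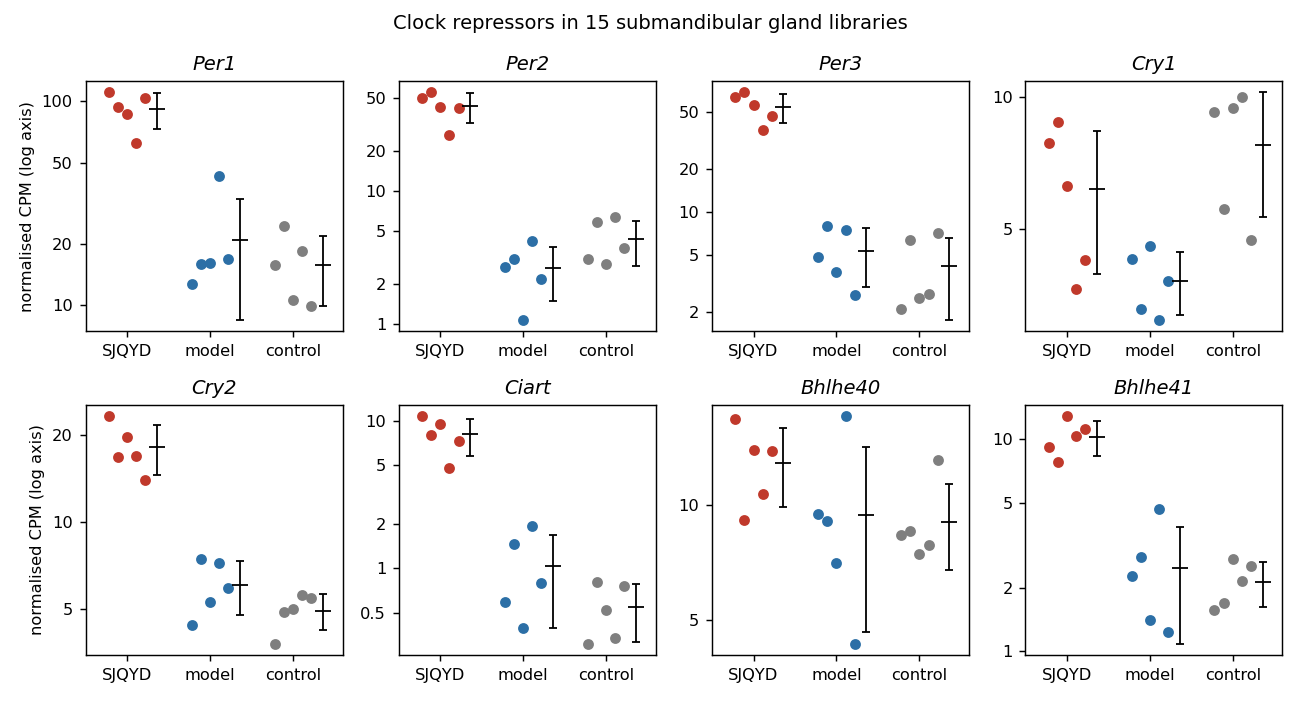
Normalised CPM on a log axis for each of the 8 clock repressors, with a point for each library in order of replicate number and a bar for the mean and SD of 5 libraries per group. For Per1, Per2, Per3, Cry2, Ciart and Bhlhe41 all SJQYD points lie above all model and control points, while for Cry1 and Bhlhe40 the SJQYD points overlap both other groups.

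The comparison of SJQYD with model glands sets treated against untreated mice of the NOD/LTJ strain. The hour of collection is not given, and its part in this comparison was not tested. Of the 8 repressors 6 rose and 0 fell, in a comparison where 2.75% of 18136 tested genes were called and 1.91% were called higher (edgeR's quasi-likelihood test, Benjamini-Hochberg adjusted p under 0.05 over all tested genes). DESeq2 also called 6 higher and 0 lower, and at an unadjusted p under 0.05 edgeR had 7 higher and 0 lower. Those 6 were also without overlap between the groups, which 3.21% of all genes were in the higher direction, 2.29% in the lower and 5.50% in either. The median log2 fold change of the 8 members was 2.09, against -0.03 for all tested genes. Rises were largest for Per2, Per3 and Ciart, smaller for Per1, Bhlhe41 and Cry2, and neither Cry1 nor Bhlhe40 passed the test. The members were chosen with earlier results of these data known, so the count describes the members.

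Per2 encodes the PER protein whose loss shortens or abolishes rhythms in mice. It stood at 50.5, 55.2, 42.7, 26.4 and 41.8 CPM in SJQYD 1 to 5, against 2.67, 3.08, 1.07, 4.22 and 2.16 CPM in model 1 to 5. The lowest SJQYD library thus lay well above the highest model library. The log2 fold change was 4.04 ± 0.35 (SE, n = 5 per group, edgeR adjusted p = 3.40e-05), or 16.4-fold, and Per2 ranked 6 among all tested genes by p. Per3, the third PER gene and the least needed for rhythm in mice, stood at 63.5, 68.8, 56.6, 37.7 and 47.2 CPM in SJQYD libraries, against 4.80, 8.02, 3.78, 7.52 and 2.61 CPM in model libraries. Its groups did not overlap either, and its log2 fold change was 3.36 ± 0.41 (SE, n = 5 per group, edgeR adjusted p = 0.000598).

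Per1, which hormones and nerve signals also induce in many tissues, stood at 111, 94.1, 87.2, 62.4 and 104 CPM in SJQYD libraries, against 12.7, 16.0, 16.1, 43.0 and 16.9 CPM in model libraries. Model 4 was high within its group but below every SJQYD library. Per1 rose 4.38-fold (log2 fold change 2.13 ± 0.34 SE, n = 5 per group, edgeR adjusted p = 0.00443). Without SJQYD 1, SJQYD 3, model 3 and control 2 its log2 fold change was 1.97 and the call was lost (adjusted p = 0.0843), whereas the other 5 calls remained. In SJQYD 4 all 3 Period genes stood at their lowest of the group.

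Cryptochromes are the main inhibitors of CLOCK and BMAL1, and the pair did not move alike. Cry2 stood at 23.2, 16.7, 19.7, 16.9 and 13.9 CPM in SJQYD libraries, against 4.399, 7.45, 5.28, 7.21 and 5.92 CPM in model libraries. No SJQYD library overlapped the model range, and Cry2 had the smallest SE of the 8 members (log2 fold change 1.58 ± 0.17, n = 5 per group, edgeR adjusted p = 0.000111). Cry1 stood at 7.82, 8.76, 6.25, 3.64 and 4.25 CPM in SJQYD libraries, against 4.25, 3.28, 4.57, 3.10 and 3.79 CPM in model libraries. SJQYD 1 to 3 lay above all model libraries and SJQYD 4 and 5 within their range. The log2 fold change of Cry1 was 0.69 ± 0.26 (SE, n = 5 per group, edgeR adjusted p = 0.175) and did not pass.

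Ciart encodes the repressor that binds BMAL1. It stood at 10.8, 8.04, 9.59, 4.83 and 7.30 CPM in SJQYD libraries, against 0.589, 1.46, 0.390, 1.93 and 0.792 CPM in model libraries. The groups did not overlap, and the log2 fold change was 2.98 ± 0.41 (SE, n = 5 per group, edgeR adjusted p = 0.000721), or 7.87-fold.

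The paralogs Bhlhe40 and Bhlhe41 encode repressors with a basic helix-loop-helix domain. Bhlhe41 stood at 9.18, 7.83, 12.9, 10.3 and 11.2 CPM in SJQYD libraries, against 2.26, 2.79, 1.41, 4.68 and 1.24 CPM in model libraries. It rose without overlap (log2 fold change 2.05 ± 0.30 SE, n = 5 per group, edgeR adjusted p = 0.00135). Bhlhe40 stood at 16.8, 9.11, 13.9, 10.7 and 13.8 CPM in SJQYD libraries, against 9.47, 9.08, 7.04, 17.0 and 4.34 CPM in model libraries. Its highest value of all was in model 4, the groups overlapped, and it did not pass (log2 fold change 0.45 ± 0.28 SE, n = 5 per group, edgeR adjusted p = 0.476).

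**Figure D2:**
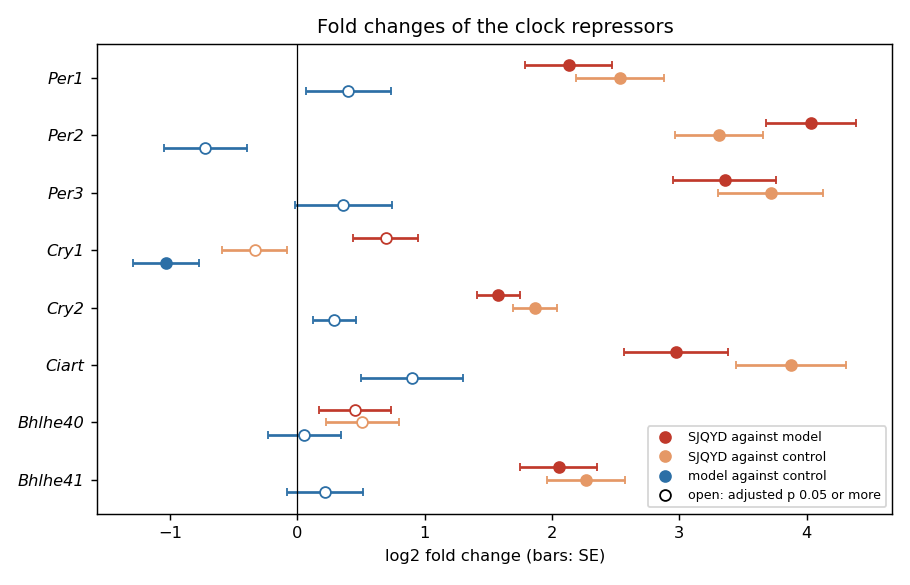
Log2 fold changes with SE bars for the 8 repressors in SJQYD against model, SJQYD against control and model against control, with filled points for genes past an edgeR adjusted p of 0.05. The 6 genes Per1, Per2, Per3, Cry2, Ciart and Bhlhe41 have filled points far to the right in both SJQYD comparisons, and Cry1 has the only filled point in model against control, on the left.

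The comparison of model with control glands asks how untreated NOD/LTJ mice differ from ICR mice. Of the 8 repressors 1 fell, 0 rose and 7 did not pass, in a comparison where 5.07% of all tested genes were called, 2.50% lower and 2.57% higher. DESeq2 also called 1 lower and 0 higher, and at an unadjusted p under 0.05 edgeR had 2 lower and 1 higher. The median log2 fold change of the members was 0.25, against 0.03 for all genes. The member that fell was Cry1, at 4.25, 3.28, 4.57, 3.10 and 3.79 CPM in model libraries, against 9.21, 5.53, 9.41, 9.99 and 4.71 CPM in control libraries. All model libraries lay below all control libraries, as held in the lower direction for 2.71% of all genes, in the higher for 3.05% and in either for 5.77%, though model 3 and control 5 were close to each other. The log2 fold change was -1.03 ± 0.26 (SE, n = 5 per group, edgeR adjusted p = 0.030). The call was lost without control 1, control 3 or control 4 (adjusted p = 0.0764, 0.0707 and 0.0749) and without model 1, model 2 or model 5 (adjusted p = 0.0539, 0.0819 and 0.0626). It was also lost with limma on log2 FPKM (adjusted p = 0.334 with a pseudocount of 1).

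Among the members that did not pass, Ciart averaged 1.03 ± 0.642 CPM in model glands and 0.547 ± 0.233 CPM in control glands (SD, n = 5 each, edgeR adjusted p = 0.202). Per2 averaged 2.64 ± 1.16 CPM in model glands and 4.34 ± 1.61 CPM in control glands (SD, n = 5 each, edgeR adjusted p = 0.210). Per1 and Per3 had log2 fold changes of 0.40 ± 0.33 and 0.36 ± 0.38 (SE), and the value for Per1 was -0.04 without model 4. Cry2 had a log2 fold change of 0.29 ± 0.17, Bhlhe41 of 0.21 ± 0.30 and Bhlhe40 of 0.06 ± 0.29 (SE). The last 2 were -0.15 and -0.27 without model 4. None of these 7 can be called changed or equal at this spread.

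Set against control glands, the SJQYD glands showed Per1, Per2, Per3, Cry2, Ciart and Bhlhe41 higher and 0 members lower, in a comparison where 11.1% of all genes were called, 5.22% higher and 5.90% lower. DESeq2, and edgeR at an unadjusted p under 0.05, likewise had 6 higher and 0 lower. The number of called genes was 1240 without control 5 and 1298 without SJQYD 2, against 2017 with all libraries. The 6 did not overlap between the groups, as held in the higher direction for 5.07% of genes, in the lower for 5.00% and in either for 10.1%. This comparison shares its SJQYD libraries with the first and its control libraries with the second, and is not an independent test. The median log2 fold change was 2.40 for the members and 0.04 for all genes. Control libraries 1 to 5 stood at 0.308, 0.810, 0.517, 0.338 and 0.761 CPM for Ciart, and its log2 fold change was 3.88 ± 0.43 (SE, n = 5 per group, edgeR adjusted p = 4.78e-05). They stood at 2.10, 6.39, 2.49, 2.65 and 7.10 CPM for Per3, and its log2 fold change was 3.72 ± 0.42 (SE, n = 5 per group, edgeR adjusted p = 0.000133). Control 2 and control 5 were thus the highest control libraries for both genes.

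Per2 was at 3.08, 5.80, 2.81, 6.33 and 3.70 CPM in control libraries, and SJQYD glands were 9.93-fold higher (adjusted p = 4.84e-05). Per1 was at 15.8, 24.4, 10.6, 18.4 and 9.87 CPM in control libraries, with SJQYD glands 5.79-fold higher (adjusted p = 0.000617). Bhlhe41 ran from 1.57 to 2.73 CPM and Cry2 from 3.81 to 5.60 CPM in control libraries, and SJQYD glands were 4.81-fold and 3.65-fold higher (adjusted p = 0.000322 and 7.09e-06). For Cry1 the log2 fold change was -0.34 ± 0.25 (SE, n = 5 per group, edgeR adjusted p = 0.437). The SJQYD glands, at 3.64 to 8.76 CPM, spanned most of the control range of 4.71 to 9.99 CPM. Bhlhe40, at 9.11 to 16.8 CPM in SJQYD glands and 7.42 to 13.1 CPM in control glands, did not pass either (adjusted p = 0.276).

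Related members were next compared within a library, where their ratio does not depend on scaling. Ratios of counts for 4 pairs were tested in 3 comparisons by an exact, two-sided permutation of the libraries between the groups compared. Its smallest p is 0.00794, and p values were adjusted over the 12 tests. The log2 ratio of Cry1 to Cry2 averaged -1.61 ± 0.46 in SJQYD, -0.66 ± 0.54 in model and 0.60 ± 0.60 in control glands (SD, n = 5 each). It was lower by 0.96 in SJQYD than in model glands (exact p = 0.0238, adjusted p = 0.0357), lower by 2.21 in SJQYD than in control glands (exact p = 0.00794, adjusted p = 0.0191) and lower by 1.25 in model than in control glands (exact p = 0.0238, adjusted p = 0.0357). The mean balance of the cryptochromes thus differed between all groups, towards Cry2 in model glands and further so in SJQYD glands. Single libraries of model and control glands overlapped in this ratio, as did those of SJQYD and model glands. The log2 ratio of Bhlhe40 to Bhlhe41 averaged 0.31 ± 0.33 in SJQYD, 1.95 ± 0.24 in model and 2.07 ± 0.42 in control glands (SD, n = 5 each). It was lower by 1.63 in SJQYD than in model glands with no overlap (exact p = 0.00794, adjusted p = 0.0191), while model and control glands differed by -0.13 (exact p = 0.540, adjusted p = 0.540).

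Among the Period genes, the log2 ratio of Per1 to Per2 averaged 1.10 ± 0.21 in SJQYD, 2.96 ± 0.69 in model and 1.86 ± 0.38 in control glands (SD, n = 5 each). Model glands were higher than control glands by 1.10 (exact p = 0.0159, adjusted p = 0.0318), and SJQYD glands were lower than model glands by 1.86 (exact p = 0.00794, adjusted p = 0.0191). Per1 and Per2 thus kept no fixed ratio across the groups. The log2 ratio of Per3 to Per2 averaged 0.35 ± 0.12 in SJQYD, 1.02 ± 0.59 in model and -0.18 ± 0.81 in control glands (SD, n = 5 each). Model glands were higher than control glands by 1.20 (exact p = 0.0317, adjusted p = 0.0423) and SJQYD glands lower than model glands by 0.67 (exact p = 0.0397, adjusted p = 0.0476). The first of these was lost without any one of control 1 to 4, model 2 or model 3 (exact permutation p = 0.0556 for each). The second was lost without model 3 or any SJQYD library (exact permutation p = 0.0556 to 0.0794). SJQYD and control glands differed by 0.53 in this ratio (exact p = 0.198), and by 0.81 without control 5 (exact p = 0.00794).

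**Figure D3:**
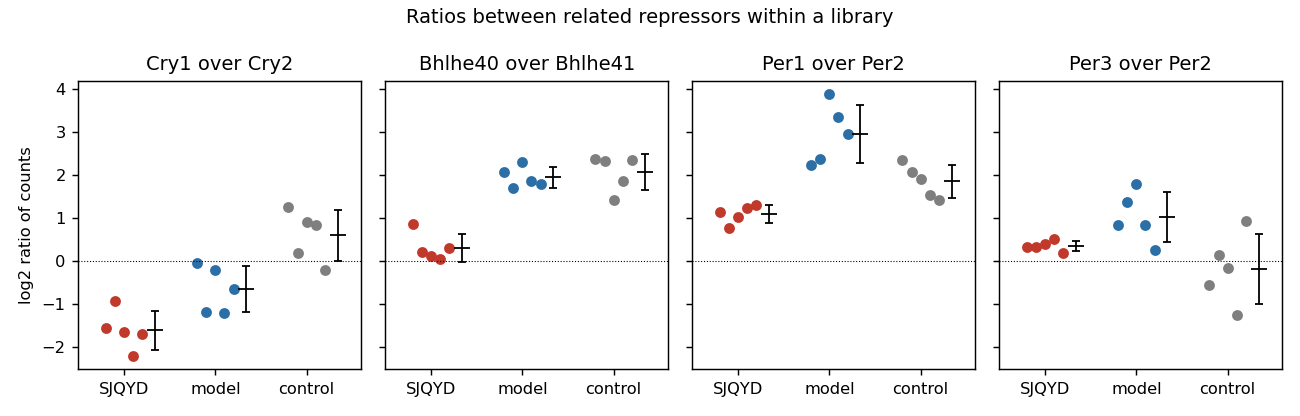
Log2 ratio of counts between related repressors within each library, with a point per library and a bar for the mean and SD of 5 libraries per group. The Bhlhe40 to Bhlhe41 ratio runs from 0.05 to 0.87 in SJQYD libraries and lies above 1.43 in every model and control library, and the Cry1 to Cry2 ratio is lowest in SJQYD, intermediate in model and highest in control libraries on average.

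To order the members by level, FPKM values were used, which are scaled to transcript length by the authors but do not carry the TMM factors. Per1 was the most abundant member in each group, at 17.1 ± 8.26 FPKM in SJQYD, 3.36 ± 1.59 FPKM in model and 2.00 ± 1.12 FPKM in control glands (SD, n = 5 each). In SJQYD glands the order was Per1, Per2 (7.83 ± 3.83 FPKM), Per3 (6.03 ± 2.90), Ciart (3.87 ± 2.24), Cry2 (3.04 ± 1.60), Bhlhe40 (2.89 ± 1.58), Cry1 (1.98 ± 1.17) and Bhlhe41 (1.53 ± 0.456). The ranges of all neighbours in that order overlapped between libraries, although Per1, Per2, Per3 and Ciart followed each other in this order in all 5 libraries. In model glands the order was Per1, Bhlhe40, Cry1, Cry2, Per3, Per2, Ciart and Bhlhe41, again with overlap between all neighbours. In control glands it was Per1, Cry1, Bhlhe40, Cry2, Per2, Per3, Bhlhe41 and Ciart, and only Bhlhe40 and Cry2 did not overlap, at 1.31 ± 0.406 and 0.540 ± 0.151 FPKM.

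Within a library, each member's share of the summed FPKM of the 8 genes is free of depth. Cry1 made up 4.30% ± 1.04 of it in SJQYD, 13.3% ± 5.13 in model and 24.6% ± 8.49 in control glands (SD, n = 5 each). Bhlhe40 made up 6.60% ± 1.35 in SJQYD, 20.3% ± 4.75 in model and 20.4% ± 6.27 in control glands, and its SJQYD range of 4.26% to 7.75% lay below every other library. The share of Per2 was 17.5% ± 2.00 in SJQYD, 4.70% ± 1.39 in model and 7.59% ± 2.01 in control glands, and that of Ciart was 8.43% ± 1.16, 4.47% ± 1.78 and 2.44% ± 1.10. Cry2 held 6.96% ± 1.51 in SJQYD, 10.5% ± 2.59 in model and 8.25% ± 1.35 in control glands, so that its rise in level left its share no larger.

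**Figure D4:**
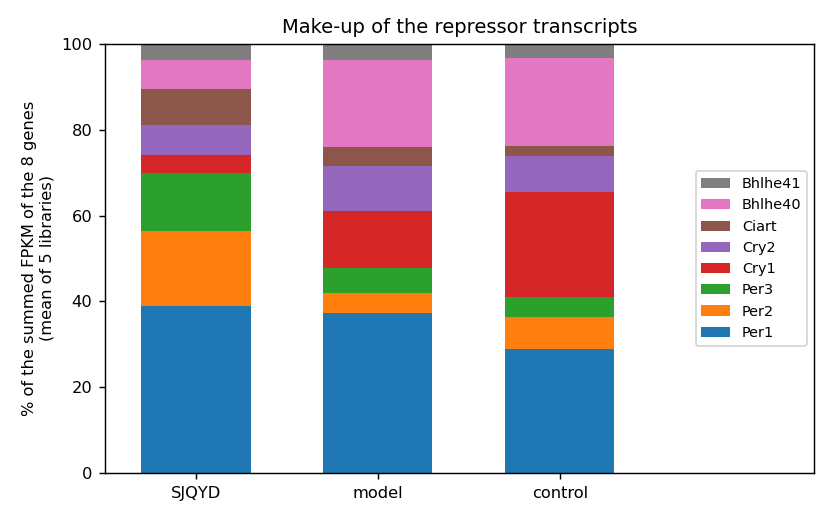
Mean share, over 5 libraries per group, of each repressor in the summed FPKM of the 8 genes. Per1 has the largest share in every group, Per2, Per3 and Ciart take more of the SJQYD bar than of the others, and Cry1 and Bhlhe40 take less.

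The spread within a group was largest in model glands for Ciart, Bhlhe40 and Bhlhe41, also with any 1 library left out. Their SDs of log2 CPM over 5 model libraries were 0.90, 0.71 and 0.76, against a median of 0.34 over all tested genes. Per1 and Per2 had SDs of 0.68 and 0.73 in model glands, but that of Per1 was 0.18 without model 4 and that of Per2 was 0.40 without model 3. Both were then below their control SDs of 0.55 and 0.53. Per3 had an SD of 0.35 in SJQYD, 0.68 in model and 0.82 in control glands. Over SJQYD libraries Per1, Per2, Per3, Ciart, Bhlhe40 and Bhlhe41 had SDs of 0.27 to 0.44, and of 0.15 to 0.37 without SJQYD 4. Cry1 had its lowest SD in model glands, at 0.55 in SJQYD, 0.24 in model and 0.50 in control glands. Among tested genes within 0.5 of the mean log2 level of Bhlhe41, 7.55% had a larger SD in model and 67.3% in SJQYD glands.

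Some libraries stood at the edge of their group for several members. Model 4 was the highest of its group for 5 members (Per1, Per2, Ciart, Bhlhe40 and Bhlhe41) and the lowest for Cry1, while it was the highest for 23.4% of all tested genes. SJQYD 4 was the lowest of its group for 5 members (Per1, Per2, Per3, Cry1 and Ciart), against 17.7% of all genes, and the highest for none. SJQYD 1 was the highest of its group for Per1, Cry2, Ciart and Bhlhe40, against 24.5% of all genes. Control 1 was the lowest of its group for Per3, Cry2, Ciart and Bhlhe41, against 23.4% of all genes.

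After subtraction of each group's mean, 23 of the 28 pairs of members had a positive correlation of log2 CPM over the 15 libraries, with a median r of 0.41. The points share their scaling, and these values are descriptions. The closest pairs were Bhlhe40 with Bhlhe41 (r = 0.78) and Per3 with Ciart (r = 0.77). Every pair with an r below 0 included Cry1, the lowest being Cry1 with Per3 (r = -0.37). Within groups, Per3 moved opposite to Arntl (r = -0.88), as did Bhlhe40 (r = -0.78) and Ciart (r = -0.77). The r with Arntl was weaker for Cry2 (-0.60), Bhlhe41 (-0.57), Per2 (-0.46) and Per1 (-0.34). Cry1 moved opposite to Nr1d1 within groups (r = -0.83) and also opposite to Dbp (r = -0.71). With Nr1d2 its r was -0.41, although the products of Nr1d1 and Nr1d2 both repress Cry1. Cry1 had an r of 0.32 with Arntl. Without subtraction of group means, the r of Cry1 was -0.53 with Nr1d1 and -0.07 with Nr1d2.

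The relations of Per3 with Arntl and of Cry1 with Nr1d1 could be read in single libraries. Arntl stood at 4.88 CPM in model 4 and 8.47 CPM in model 2, the lowest of that group, and at 20.3 CPM in model 5, the highest. Per3 stood at 7.52 and 8.02 CPM in model 4 and model 2, and at 2.61 CPM in model 5. Model 4 and model 2 thus had little Arntl and much Per3, and model 5 the reverse. Nr1d1 stood at 85.7 and 104 CPM in SJQYD 4 and 5, where Cry1 was at 3.64 and 4.25 CPM, and at 39.1 CPM in SJQYD 2, where Cry1 was at 8.76 CPM. Among controls, Nr1d1 was at 28.4 and 29.7 CPM in control 2 and 5, the libraries with the least Cry1, and between 12.7 and 20.8 CPM in the other 3.

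**Figure D5:**
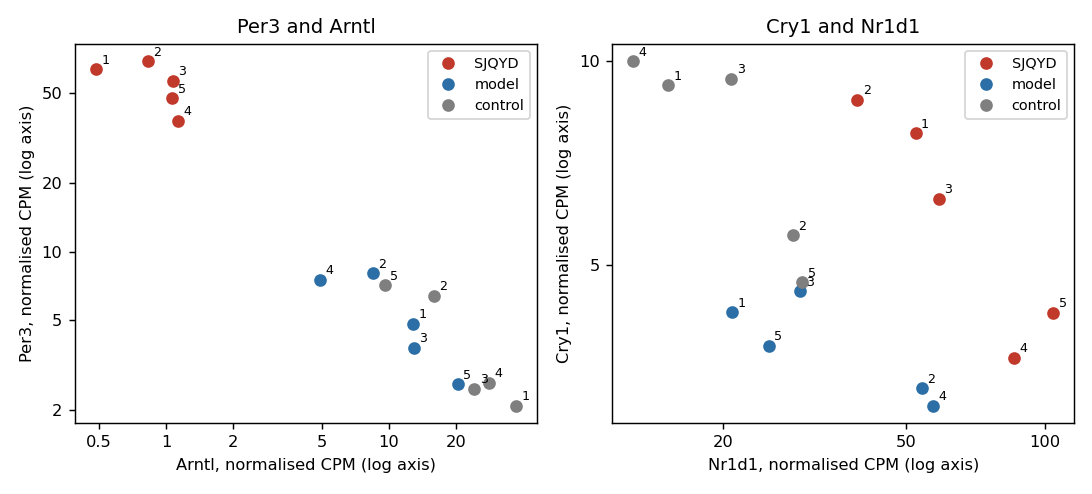
Per3 against Arntl and Cry1 against Nr1d1, in normalised CPM on log axes, with a point per library labelled by its replicate number. Per3 tends to be lower where Arntl is higher across the 15 libraries, with model 2 and 4 near control 5, and within each group the libraries with the most Nr1d1, such as SJQYD 5 at 104 CPM and control 5 at 29.7 CPM, are among those with the least Cry1.

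The activators and the other genes of the loop were counted from lists written with earlier results known. Of 4 activator genes 3 fell and none rose in SJQYD against model glands, where 0.838% of all genes were called lower. Arntl averaged 0.915 ± 0.269 CPM in SJQYD and 11.9 ± 5.78 CPM in model glands (SD, n = 5 each), Npas2 averaged 0.677 ± 0.256 CPM in SJQYD and 5.47 ± 2.32 CPM in model glands, and Clock fell by 0.56 ± 0.11 on the log2 scale (SE, adjusted p = 0.0112 with edgeR). In model against control glands, where edgeR called 5.07% of all genes, it called 0 of the 4 activators. At an unadjusted p under 0.05 edgeR had 2 lower, and DESeq2 called 1 lower. Arntl was at -0.95 ± 0.39 on the log2 scale in model against control glands (SE, adjusted p = 0.167 with edgeR). Of 5 nuclear receptor genes 4 were tested. Nr1d2 rose in SJQYD against model glands (log2 fold change 1.59 ± 0.21 SE, adjusted p = 0.000626 with edgeR), while Nr1d1 averaged 68.1 ± 26.5 CPM in SJQYD and 37.4 ± 17.0 CPM in model glands (SD, n = 5 each, edgeR adjusted p = 0.221). In model against control glands Rora, an activator of Arntl, fell by 0.56 ± 0.14 on the log2 scale (SE, adjusted p = 0.0294 with edgeR).

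Of the PAR bZIP factors Dbp, Tef and Hlf, which bind D-boxes, all 3 rose in SJQYD against model glands with edgeR, where 1.91% of all genes were called higher, while Nfil3, which represses at the same element, was at -0.77 ± 0.23 on the log2 scale (SE, adjusted p = 0.0939 with edgeR) and was called lower by DESeq2. Hlf had the smallest p of the 3 (log2 fold change 1.63 ± 0.22 SE, adjusted p = 0.000555 with edgeR). Dbp averaged 194 ± 42.0 CPM in SJQYD and 7.57 ± 7.13 CPM in model glands (SD, n = 5 each, edgeR adjusted p = 0.0131). In model against control glands Nfil3 fell by 0.95 ± 0.23 on the log2 scale (SE, adjusted p = 0.0279 with edgeR). A list of 13 genes covered kinases and ubiquitin ligase parts that act on PER and CRY proteins. In SJQYD against model glands, where edgeR called 2.75% of all genes, edgeR and DESeq2 called 0 of the 13. At an unadjusted p under 0.05 edgeR had 1 higher, Usp7 (adjusted p = 0.133), and 0 lower. The median log2 fold change of the 13 was -0.01. In model against control glands, where 2.50% of all genes were called lower, 1 of the 13 fell, Fbxw11, by 0.57 ± 0.16 on the log2 scale (SE, adjusted p = 0.0493 with edgeR), and in SJQYD against control glands, where 5.90% were called lower, 1 fell, Gsk3b, by 0.58 ± 0.15 (SE, adjusted p = 0.0201 with edgeR).

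For each member, the genes outside the set with the most similar log2 CPM over the 15 libraries were found by Pearson correlation, group differences included. Usp2, a deubiquitinase gene, was among the nearest 3 for 6 members, with r from 0.94 to 0.96 for Per1, Per2, Per3, Cry2, Ciart and Bhlhe41. Nr1d2 was among the nearest 3 for Per3 (r = 0.98), Cry2 (r = 0.95), Ciart (r = 0.96) and Bhlhe41 (r = 0.95). Dbp was among the nearest 3 for Per3 (r = 0.98) and Ciart (r = 0.96). After subtraction of group means, neither Usp2 nor Nr1d2 was among the nearest 3 for any of these 6 members. Dbp stayed among the nearest 3 for Per3 (r = 0.86) but not for Ciart. Bhlhe40 and Cry1 had other neighbours. For Bhlhe40 the nearest gene was Msmo1, an enzyme of cholesterol synthesis (r = 0.86), which stayed the nearest after subtraction of group means (r = 0.89). For Cry1 the nearest were Gm15027 (r = 0.93), Gm14536 (r = 0.90) and Adamts1 (r = 0.86), and after subtraction it was Clcn5 (r = 0.87).

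Some members share their ground with other genes, and whether strand was used in counting is not given in the sources used here. Per3 lies wholly within Camta1 on the same strand. Camta1 averaged 6.27 CPM in SJQYD and 6.22 CPM in model glands (log2 fold change 0.01 ± 0.14 SE, adjusted p = 0.984 with edgeR), so the rise of Per3 had no counterpart there. Gm43909 runs opposite Bhlhe41 over 1876 bases and was the third nearest gene to Bhlhe41 over the 15 libraries (r = 0.94). It had 0.369 to 0.664 CPM in SJQYD, 0.0495 to 0.385 CPM in model and 0.131 to 0.222 CPM in control glands, so its counts were a small part of those of Bhlhe41, and reads of the pair may not have been told apart. C920021L13Rik spans Ciart on the opposite strand and did not pass in SJQYD against model glands (log2 fold change 0.52 ± 0.37 SE, adjusted p = 0.552 with edgeR). It averaged 1.26 CPM in SJQYD, 0.878 CPM in model and 0.896 CPM in control glands. Ciart averaged 8.115, 1.03 and 0.547 CPM, so outside SJQYD glands the levels of the pair were alike. Reads of this pair may not have been told apart either. D930015M05Rik, opposite Cry2, had 0 to 15 counts in any library, and 0610040F04Rik overlaps Bhlhe40 by 306 bases with 0 to 27 counts.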

How the data were processed

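Polyadenylated RNA of submandibular glands was sequenced in stranded paired-end libraries with molecular identifiers, per the labels' protocols. The deposited counts are whole reads per gene, and the deposited FPKM values are scaled by the authors to gene length and library total. Per the submitters' processing notes, the tools included HISAT2 2.0.4, StringTie 1.3.4d, cutadapt 1.9, edgeR, DESeq2 and UMI-tools, and the build mm9 is named, with no role or order. Coordinates in the deposited table equal GENCODE GRCm38 for 87.5% of 32385 genes matched, so they are given as GRCm38. Counts of 4 occurred 14040 times, against 8483 for 3 and 4460 for 5, for a cause not tested.

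Counts were tested with edgeR 4.0.16 (R 4.3.3): filterByExpr, TMM factors and a robust quasi-likelihood fit over all 15 libraries, with p adjusted over 18136 genes. The SE is the log2 fold change over the root of F. Alternatives were DESeq2 1.42.0, other factors, no filter, limma 3.58.1 on log2(FPKM + 1) and log2(FPKM + 0.1) for genes at 0.5 FPKM in 5 libraries, each library left out, and, chosen after seeing the data, the fit without 4 libraries. The edgeR script was checked on simulated data. Replicate numbers did not pair the libraries. No libraries were duplicates. All 8 members are named, and of other clock genes Arntl, Clock, Npas2, Nr1d1, Nr1d2 and Dbp always. From the lists, genes with the smallest p in a direction are named, though not for every comparison. The members and lists were chosen with earlier results of these data known. Motifs were searched in RefSeq windows by exact match.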

Additional observations from a re-analysis of the deposited data

Results flagged for a closer look

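Of 24 sets of 5 libraries examined, a member in a group, 2 held a library far from the other 4 by Dixon's criterion, which chance alone meets in about 1 set in 20. Per1 in model 4 stood at 43.0 CPM, against 12.7 to 16.9 CPM in the other model libraries. Bhlhe40 in control 5 stood at 13.1 CPM, against 7.42 to 8.55 CPM in the other control libraries.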

How the results depend on the processing

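Of the log2 fold changes of single members under other settings, 535 kept their direction and side of the threshold, 9 lost the call, 2 gained it and 6 changed sign. With FPKM scaled to the library total, the median over all genes was 0.28 (pseudocount 1) and 0.45 (0.1) in model against control, where TMM gave 0.03, and 0.33 and 0.54 in SJQYD against control, where TMM gave 0.04. In these fits Cry1 was at 0.16 and 0.19 in SJQYD against control, below those medians, and Bhlhe40 passed (0.69, adjusted p = 0.0363, with pseudocount 1). Cry1 in model against control was -0.28 and -0.47 (limma adjusted p = 0.334 and 0.294), which left 0 members called lower.

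Genes called in model against control were 920 as reported, 1816 with DESeq2, 1447 and 1958 with FPKM (pseudocounts 1 and 0.1), 466 with only the 2 groups fitted and 1458 without the 4 libraries that stand apart, a setting chosen after seeing the data. Leaving out 1 library gave 354 without model 2 to 1799 without control 2, with 410 without control 1, 565 without control 3, 543 without control 4, 590 without control 5, 531 without model 1, 601 without model 3 and 548 without model 5, and 0 to 1 members called lower. In SJQYD against model 498 were called, 1082 with DESeq2, 68 and 57 with FPKM and 119 without the 4 libraries. In SJQYD against control 2017 were called, 3626 and 4046 with FPKM, and 1240 to 2626 with 1 library left out, the lowest without control 5, and 1298 without SJQYD 2. With each library left out, log2 fold changes in model against control ran from -0.041 to 0.61 for Per1, -0.27 to 0.24 for Bhlhe40 (-0.0076 without control 3) and -0.15 to 0.38 for Bhlhe41, the lowest each without model 4. The Per3 to Per2 ratio ran from 0.93 to 1.48 in model against control, -0.86 to -0.48 in SJQYD against model and 0.26 to 0.81 in SJQYD against control. The cause of these shifts was not tested.

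Same-numbered libraries correlated from -0.23 to 0.16, over 0.1 in 2 of 15 pairs, so the numbers do not pair them. With a replicate block no count of called genes moved by over 1.5 times. An exact sign-flip test of the ratios over 5 pairs as a replicate block cannot go below p = 0.0625 and so passes nothing. It left the differences as they were, at -1.25, -0.96 and -2.21 for Cry1 to Cry2 (model against control, SJQYD against model, SJQYD against control), -1.63 and -1.76 for Bhlhe40 to Bhlhe41 (SJQYD against model and control), 1.10, -1.86 and -0.76 for Per1 to Per2, and 1.20 and -0.67 for Per3 to Per2 (model against control and SJQYD against model). On the TMM-scaled library sizes 3 counts were 0.0290 to 0.0840 CPM, below every member.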

Other observations

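Lists of genes that answer other inducers of Period genes were counted as well. One list held 6 genes induced by glucocorticoids, which also induce Per1. In SJQYD against model glands, where edgeR called 2.75% of all genes, it called 0 of the 6. At an unadjusted p under 0.05 edgeR had 2 higher and 0 lower, and DESeq2 called 1 higher. The median log2 fold change of the list was 0.46. Tsc22d3, the glucocorticoid-induced leucine zipper, averaged 42.0 ± 9.99 CPM in SJQYD and 23.8 ± 8.11 CPM in model glands (SD, n = 5 each, edgeR adjusted p = 0.0716). It averaged 17.0 ± 3.50 CPM in control glands and was the 1 gene of the list called higher in SJQYD than in control glands (edgeR adjusted p = 0.00278), where 5.22% of all genes were.

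Of 7 immediate early genes, 1 fell in SJQYD against model glands, where 0.838% of all tested genes were called lower. This was Egr1, at 1.41 ± 0.664 CPM in SJQYD and 3.83 ± 0.804 CPM in model glands (SD, n = 5 each, edgeR adjusted p = 0.0222). In SJQYD against control glands, where edgeR called 11.1% of all genes, edgeR and DESeq2 called 0 of the 7. At an unadjusted p under 0.05 edgeR had 1 lower.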
